A study of Mus musculus with 24 samples.

Results

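Bone marrow-derived macrophages (BMDMs) of C57Bl/6 wild-type (WT) mice were differentiated in the presence of IL-4 and rosiglitazone (RSG) and compared with BMDMs of the same mice that received RSG without IL-4. The members were chosen by their labels alone and came to 6 of the 24 arrays of the series, 3 IL-4+RSG arrays and 3 control+RSG arrays, 1 of each from mice 1, 2 and 3. RSG is a synthetic agonist of PPARγ, a nuclear receptor that controls lipid uptake and storage. It was present at 1 µM in both groups, so no vehicle-treated culture served as the control, and M-CSF, the growth factor that drives marrow cells to become macrophages, was present at 20 ng/ml throughout. IL-4 was added at 20 ng/ml and cells were harvested at day 10. The rest of the series used here for comparison were WT macrophages with IL-4 and vehicle (a DMSO and ethanol mix) or vehicle alone, and macrophages of 3 STAT6 KO mice (mice 4, 5 and 6), which lack the transcription factor STAT6, under the same 4 treatments, with 3 arrays in each of the 8 groups. The cells are primary cultures grown from femoral marrow, so cells other than macrophages can be present in them.

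IL-4 binds its receptor, activates Janus kinases and leads to phosphorylation of STAT6, which moves to the nucleus and induces the genes of alternative macrophage activation, among them those for arginase, chitinase-like proteins, lectin receptors and a set of chemokines. PPARγ is itself induced by IL-4 and binds DNA as a heterodimer with the retinoid X receptor. Alternatively activated macrophages are known for oxidative metabolism, lipid uptake, antigen presentation and cell fusion, and for low production of inflammatory cytokines.

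Expression was measured on Affymetrix mouse genome arrays. Each value is the ratio of a probe set's signal to the median of that probe set over the 24 arrays, here on the log2 scale, so 0 is the median of the series. Such a ratio holds no absolute level: only differences between arrays for the same probe set can be read from it, and levels of different genes cannot be set against each other. The median log2 ratio of an array lay between -0.04 and 0.09 in the 6 compared arrays, no pair of the 24 arrays held identical values, and the number of arrays, 3 against 3, limits the precision. A probe set was called changed where it moved 1.5-fold or more with an adjusted p (Benjamini-Hochberg) under 0.05 in a limma fit over all 24 arrays, and each gene was represented by 1 probe set. Differences (IL-4+RSG minus control+RSG) are given on the log2 scale with their standard error (SE). STAT6 KO macrophages had mean Stat6 log2 ratios of -1.72 to -1.62 in their 4 groups, against 0.84 to 1.01 in the 4 WT groups, as the labels state. The macrophage genes Csf1r, Cd68 and Spi1 did not pass the test in the comparison (-0.08, 0.29 and 0.24). Other macrophage genes did: of the 15 macrophage identity genes measured, 2 were called higher and 3 lower. The WT vehicle control arrays of mice 2 and 3, outside the 6 compared arrays, stood apart from that of mouse 1. The stromal fibroblast genes averaged 2.81 in that of mouse 2, against 1.10 in that of mouse 1 and -0.22 in that of mouse 3. The alternative activation genes averaged 1.05 in that of mouse 3, against -0.92 in that of mouse 1. The vehicle control arrays of mice 2 and 3 enter the comparison only through the shared estimate of the spread. The call count was 6039 without them, against 6065 with them.

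IL-4 in the presence of RSG changed a large share of the measured transcripts. Of 45037 probe sets, 6065 (13.5%) were called, 3546 (7.87%) higher and 2519 (5.59%) lower in IL-4+RSG than in control+RSG macrophages. Among 18193 genes, 1500 (8.24%) were called higher and 1081 (5.94%) lower. The called differences of genes that rose had a median size of 1.06 and those of genes that fell 1.23, and the change reached 4-fold in 366 genes that rose and in 276 that fell, and 16-fold in 78 that rose and 38 that fell. The 3 arrays of one group all lay above the 3 of the other for 33.1% of genes (20.2% higher and 13% lower with IL-4+RSG), and the median difference over all probe sets was 0.06. For 23 genes, probe sets of the same gene were called in opposite directions. A fit on the 6 compared arrays alone, with fewer degrees of freedom, called 3578 probe sets.

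The genes of alternative activation rose together. Of the 27 list members measured, 24 were called higher and 1 lower, with a median difference of 3.63, against 8.24% and 5.94% of all genes, and 26 of the 27 did not overlap between the groups (25 higher, 1 lower), against 33.1% of all genes. The list includes genes chosen from the study's own text, which were reported on these samples, so its direction is not independent evidence. Arg1, the enzyme that splits arginine into ornithine and urea, had log2 ratios of 8.38, 8.42 and 8.45 in IL-4+RSG macrophages, against -3.61, -2.57 and -2.21 in control+RSG macrophages. Its difference was 11.21 ± 1.00 (SE; 2370.2-fold; adjusted p = 2.74e-07). The 3 IL-4+RSG arrays lay close together and far above all 3 control arrays, which were more spread. Retnla, which encodes the secreted protein RELMα (also FIZZ1), had log2 ratios of 7.57, 7.61 and 7.56 in IL-4+RSG macrophages, against -1.45, -1.28 and -1.47 in control+RSG macrophages, a difference of 8.98 ± 1.29 (506-fold; adjusted p = 6.94e-05). Every SE here rests on a spread pooled over all 8 groups. The standard deviation (SD) of Retnla was 0.03 and 0.10 in the IL-4+RSG and control+RSG arrays, but 4.55 in the WT vehicle control arrays, which are outside the comparison. For Arg1 these SDs were 0.04, 0.73 and 3.04. Chil3, the chitinase-like lectin Ym1, had log2 ratios of 1.54, 1.54 and 1.57 in IL-4+RSG macrophages, against -2.41, -2.48 and -1.35 in control+RSG macrophages, a difference of 3.63 ± 0.36 (adjusted p = 1.15e-06). The groups did not overlap for either gene, and the 3 IL-4+RSG arrays were again close together. Chil4, the related lectin Ym2, rose by 6.62 ± 0.93 with a lower control array in mouse 2, and leaving out 1 mouse or array moved this difference between 5.46 without mouse 2 and 7.44 without mouse 3. Rnase2a (formerly Ear11), an eosinophil-associated ribonuclease, had log2 ratios of 9.99, 10.12 and 10.09 in IL-4+RSG macrophages, against -1.97, -2.14 and -0.80 in control+RSG macrophages, the largest called difference of any represented gene (11.70 ± 1.56; adjusted p = 3.10e-05). It lost the call when the variance was modelled as a function of the mean ratio (adjusted p = 0.968). The SD of Rnase2a was 0.07 and 0.73 in the IL-4+RSG and control+RSG arrays, but 4.51 in the WT vehicle control arrays.

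Surface receptors and chemokines of the program rose as well. The mannose receptor Mrc1 had log2 ratios of 1.04, 0.94 and 1.22 in IL-4+RSG macrophages, against -0.04, -0.70 and 0.19 in control+RSG macrophages, a difference of 1.25 ± 0.20 (adjusted p = 2.42e-04; 0.0564 when the 6 compared arrays were fitted alone). The galactose-type lectins Mgl2 and Clec10a rose by 5.08 and 1.65, and the β-glucan receptor Clec7a by 0.74. Pdcd1lg2, which encodes the T cell inhibitory ligand PD-L2, had log2 ratios of 3.26, 3.52 and 3.39 in IL-4+RSG macrophages, against -1.60, -1.43 and -1.87 in control+RSG macrophages, a difference of 5.02 ± 0.34 (adjusted p = 1.06e-08). Neither group's arrays spread widely for Pdcd1lg2. Irf4, a transcription factor of alternative activation, rose by 4.69. The chemokines of the list rose to different extents. Ccl24, an eosinophil attractant (eotaxin-2), rose by 5.77 ± 0.66. Ccl17, a ligand of the T helper cell receptor CCR4, had log2 ratios of 0.84, 1.51 and 0.99 in IL-4+RSG macrophages, against -1.42, -3.11 and -0.39 in control+RSG macrophages, a difference of 2.76 ± 0.79 (adjusted p = 0.0202). The groups did not overlap, but the control array of mouse 2 lay well below the others, and the call was lost without mouse 1 (3.01, adjusted p = 0.0992), without mouse 2 (1.82, adjusted p = 0.193), without the IL-4+RSG array of mouse 2 (0.0711) and without the control+RSG array of mouse 2 (0.117). Leaving out the control+RSG array of mouse 3 raised its difference to 3.38. Ccl22, the other CCR4 ligand, had a difference of 1.80 ± 0.61 and did not pass the test (adjusted p = 0.0501), though all 3 IL-4+RSG arrays lay above the control arrays. Il1rn, the IL-1 receptor antagonist, rose by 2.13. Il4ra, the IL-4 receptor chain itself, was the only list member that fell (-0.66 ± 0.14), and the histone demethylase gene Kdm6b did not pass the test (-0.18).

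**Figure D1:**
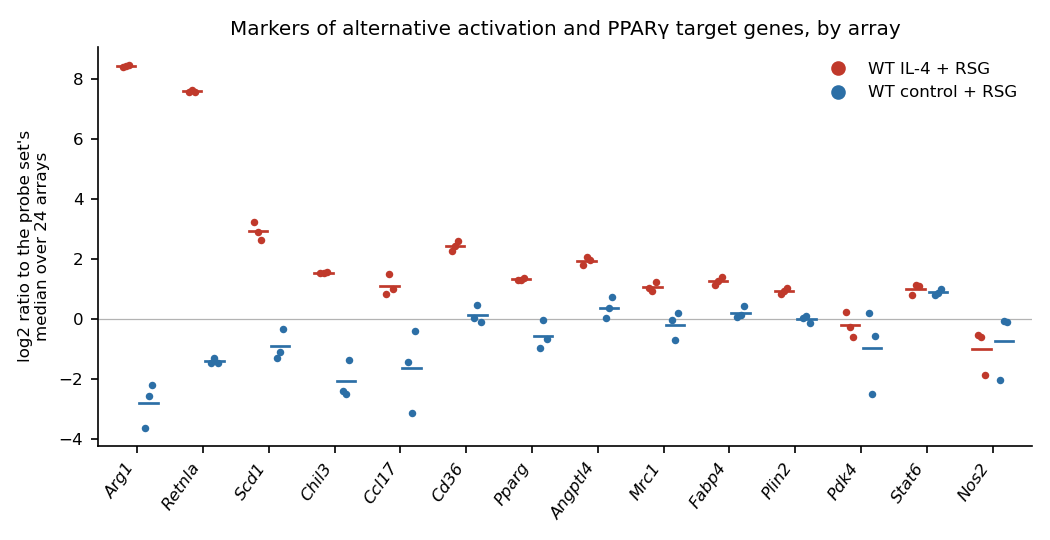
Log2 ratio to the median of the 24 arrays (vertical axis) for the genes of the study's text that have a named probe set and for Plin2 and Nos2, with 1 point per mouse in IL-4+RSG macrophages (left in each panel) and control+RSG macrophages (right), and a bar at the mean. The 3 IL-4+RSG points of Arg1 lie between 8.38 and 8.45, above control points between -3.61 and -2.21, while the points of Nos2 and Pdk4 overlap.

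The promoters of 7 genes that rose are shown because STAT proteins bind short inverted repeats that can be looked for in them. STAT6 dimers favour TTCNNNNGAA and most other STAT dimers TTCNNNGAA. The genes were chosen with their values known, among those with such a repeat in the window of 250 bases before to 50 bases after the start of the gene in RefSeq (GRCm38.p6), and capitals mark each match: Retnla (chr16:48842359-48842658, plus strand), Chil3 (chr3:106167515-106167814, minus strand), Chil4 (chr3:106219430-106219729, minus strand), Ccl17 (chr8:94810203-94810502, plus strand), Pdcd1lg2 (chr19:29410669-29410968, plus strand), Cd36 (chr5:17835847-17836146, minus strand) and Cish (chr9:107296409-107296708, plus strand). The sequences run 5′ to 3′ on the gene's own strand.
Retnla: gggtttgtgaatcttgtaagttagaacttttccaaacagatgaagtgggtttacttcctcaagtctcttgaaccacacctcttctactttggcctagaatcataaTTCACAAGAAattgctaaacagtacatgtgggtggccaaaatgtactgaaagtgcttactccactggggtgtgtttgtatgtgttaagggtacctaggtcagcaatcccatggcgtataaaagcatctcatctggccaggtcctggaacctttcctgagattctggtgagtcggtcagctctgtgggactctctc
Chil3: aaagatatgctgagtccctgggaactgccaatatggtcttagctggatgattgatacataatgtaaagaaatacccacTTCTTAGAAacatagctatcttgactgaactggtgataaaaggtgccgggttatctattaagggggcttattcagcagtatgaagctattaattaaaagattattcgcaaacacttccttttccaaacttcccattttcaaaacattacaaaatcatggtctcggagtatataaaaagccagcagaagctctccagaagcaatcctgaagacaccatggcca
Chil4: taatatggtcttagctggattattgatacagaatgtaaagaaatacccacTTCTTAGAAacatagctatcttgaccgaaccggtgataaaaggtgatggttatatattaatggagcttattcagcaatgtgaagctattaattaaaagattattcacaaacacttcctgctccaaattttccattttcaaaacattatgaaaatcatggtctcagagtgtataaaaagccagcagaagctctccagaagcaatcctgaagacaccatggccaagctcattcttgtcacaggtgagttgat
Ccl17: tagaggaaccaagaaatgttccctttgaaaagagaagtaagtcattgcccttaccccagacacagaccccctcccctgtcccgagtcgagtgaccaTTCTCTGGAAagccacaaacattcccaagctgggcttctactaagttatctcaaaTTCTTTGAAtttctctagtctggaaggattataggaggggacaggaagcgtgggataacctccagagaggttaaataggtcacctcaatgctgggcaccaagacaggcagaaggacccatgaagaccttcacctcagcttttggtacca
Pdcd1lg2: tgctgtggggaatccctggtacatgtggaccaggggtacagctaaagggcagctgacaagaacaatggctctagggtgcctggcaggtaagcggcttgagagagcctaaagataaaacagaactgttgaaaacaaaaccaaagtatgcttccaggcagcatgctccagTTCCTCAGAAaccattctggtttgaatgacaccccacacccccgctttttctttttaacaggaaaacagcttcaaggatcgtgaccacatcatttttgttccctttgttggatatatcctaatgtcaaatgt
Cd36: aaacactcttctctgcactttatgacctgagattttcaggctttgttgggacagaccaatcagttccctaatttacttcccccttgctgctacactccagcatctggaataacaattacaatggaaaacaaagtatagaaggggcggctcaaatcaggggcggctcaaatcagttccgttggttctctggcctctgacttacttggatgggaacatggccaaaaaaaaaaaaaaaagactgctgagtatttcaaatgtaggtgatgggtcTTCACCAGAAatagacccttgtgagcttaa
Cish: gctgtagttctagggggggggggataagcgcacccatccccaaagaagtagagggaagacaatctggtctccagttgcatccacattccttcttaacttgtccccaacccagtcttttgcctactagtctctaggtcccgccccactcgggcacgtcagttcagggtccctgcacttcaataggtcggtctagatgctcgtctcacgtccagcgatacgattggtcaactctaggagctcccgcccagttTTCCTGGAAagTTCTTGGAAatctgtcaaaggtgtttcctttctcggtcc

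Retnla, Pdcd1lg2 and Cd36 held the form with a spacer of 4 bases, Chil3, Chil4 and Cish the form with 3 bases (2 matches in Cish), and Ccl17 held 1 of each. Both motifs read the same on either strand, so 1 search covered both, and a match of one form is never a match of the other at the same position. Windows were on hand for 1214 of the 1500 genes called higher. The 4-base form was present in 88 of these 1214 (7.25%), against 2164 of 27025 genes with a window (8.01%), and the 3-base form in 99 (8.15%), against 9.55% of all. Among the 14452 represented genes with a window the shares were 6.94% and 8.57%. The shares of genes called higher lay between these backgrounds for the 4-base form and below both for the 3-base form, and no difference was tested. A match describes these letters only.

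Genes of IL-4 receptor signalling were called in both directions, and the largest increases were those of the feedback inhibitors Socs2, Cish and Socs1. Of 21 members measured, 6 were called higher and 5 lower (median 0.27), against 8.24% and 5.94% of all genes. The SOCS family, which binds activated receptors and kinases and dampens cytokine signals, moved in both directions. Socs2 had log2 ratios of 2.04, 1.89 and 1.69 in IL-4+RSG macrophages, against -2.69, -2.43 and -2.06 in control+RSG macrophages, a difference of 4.27 ± 0.82 (adjusted p = 0.00105). Cish, the founding member of that family and a known STAT target, had log2 ratios of 2.43, 2.52 and 2.34 in IL-4+RSG macrophages, against -1.72, -1.10 and -1.12 in control+RSG macrophages, a difference of 3.75 ± 0.22 (adjusted p = 2.22e-09). All 3 mice showed both increases without overlap. Socs1 rose by 2.64 ± 0.73 and Socs3 fell by 2.08 ± 0.51. Socs1 lost its call without mouse 1 (adjusted p = 0.132) or mouse 3 (0.0582), and Socs3 without mouse 2 (0.0640) or mouse 3 (0.107). The kinase Jak2 rose by 1.23, the transcription factor Stat5a by 0.81 and the adaptor Shc1 by 0.80. Il13ra1, the chain that pairs with Il4ra in the type II receptor, was -0.87 and passed the test, as did the phosphatase Ptpn6 (-0.64) and the regulatory kinase subunit Pik3r1 (-0.82). Stat6 itself had log2 ratios of 0.81, 1.14 and 1.08 in IL-4+RSG macrophages, against 0.79, 0.88 and 0.99 in control+RSG macrophages and did not pass the test (0.12 ± 0.15; adjusted p = 0.676; its sign turned under quantile normalization).

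The 12 largest increases joined classic IL-4 targets with genes of other known roles. Besides Rnase2a, Arg1, Retnla and Chil4 they were Ddx4, an RNA helicase of germ cells (8.24 ± 0.35), Il31ra, a chain of the IL-31 receptor (7.67 ± 0.97), Tuba8, an α-tubulin (7.51 ± 0.52), the membrane protein gene Tmem26 (7.23 ± 0.41), Srpx2, a secreted sushi-repeat protein (7.21 ± 1.04), Aldh1a2, the enzyme that makes retinoic acid (7.18 ± 1.21), Ly75, the endocytic receptor DEC-205 (6.83 ± 0.95), and Lhx2, a LIM-homeodomain transcription factor (6.75 ± 0.83). Aldh1a2 had log2 ratios of 5.24, 5.67 and 5.02 in IL-4+RSG macrophages, against -0.97, -0.68 and -3.97 in control+RSG macrophages. Ly75 had log2 ratios of 3.92, 4.18 and 3.48 in IL-4+RSG macrophages, against -3.24, -4.34 and -1.34 in control+RSG macrophages. The control arrays of both genes spread more than the IL-4+RSG arrays, and the groups stayed apart. Leaving out 1 mouse or array moved Aldh1a2 between 6.13 without the control+RSG array of mouse 3 and 7.78 without the control+RSG array of mouse 2, and Ly75 between 5.99 without mouse 2 and 7.84 without mouse 3. The same step moved Lhx2 between 5.82 without mouse 3 and 8.06 without mouse 1, Srpx2 between 6.55 without mouse 3 and 8.07 without mouse 1, and Tuba8 between 6.96 without the control+RSG array of mouse 2 and 8.21 without the control+RSG array of mouse 3. Ddx4 and Tmem26 lost their calls under a variance trend (adjusted p = 0.917 and 0.741).

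The 12 largest decreases were led by genes known from neutrophils. S100a9, a subunit of calprotectin, was at the lowest ratio of the table in all 3 IL-4+RSG arrays, against -0.36, -0.69 and 0.58 in control+RSG macrophages, so its fold is a bound: it was at least 89.7-fold lower (adjusted p = 1.22e-10). Ngp, a cathelicidin-related granule protein, had log2 ratios of -6.64, -5.93 and -6.53 in IL-4+RSG macrophages, against -0.15, -0.43 and 0.88 in control+RSG macrophages, a difference of -6.47 ± 0.37. Lcn2, the siderophore-binding lipocalin, differed by -6.14 ± 0.45, lactoferrin (Ltf) by -5.69 ± 0.61, and the antimicrobial peptide gene Camp by -5.25 ± 0.57. All 5 of these genes fell in each mouse, and mouse 1 was at the lowest ratio for Ngp, Lcn2 and Ltf, whose decreases are to that extent bounds. By the methods' t-test on the deposited ratios, with only the 6 compared arrays, each of the 5 lost its call (adjusted p = 0.122 to 0.218). Lcn2 moved between -6.91 without mouse 2 and -5.53 without mouse 3, Ltf between -6.55 without mouse 2 and -5.08 without mouse 3, and Camp between -5.73 without mouse 2 and -4.61 without mouse 3 when 1 mouse or array was left out. In RNA from whole cultures, fewer cells of a type and less RNA per cell cannot be told apart. The other 7 were macrophage receptors or genes of other roles: Stab1, a scavenger receptor (-4.88 ± 0.23), Gpr34, a lysophospholipid receptor (-5.39 ± 0.20), Adgre4, an adhesion receptor of the F4/80 family (-5.80 ± 0.37), Sorl1, a sorting receptor (-4.77 ± 0.19), Olfml3, an olfactomedin-like secreted protein (-4.91 ± 0.50), Rapsn, which clusters acetylcholine receptors in muscle (-5.38 ± 0.59), and Rrad, a small GTPase (-4.93 ± 0.73). Stab1 had log2 ratios of -4.73, -4.21 and -3.68 in IL-4+RSG macrophages, against 0.80, 0.16 and 1.05 in control+RSG macrophages, with adjusted p = 1.22e-10. Rapsn moved between -6.22 without the control+RSG array of mouse 1 and -4.75 without the control+RSG array of mouse 3, and Rrad between -6.18 without the IL-4+RSG array of mouse 3 and -4.30 without the IL-4+RSG array of mouse 2, on leaving out 1 mouse or array.

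**Figure D2:**
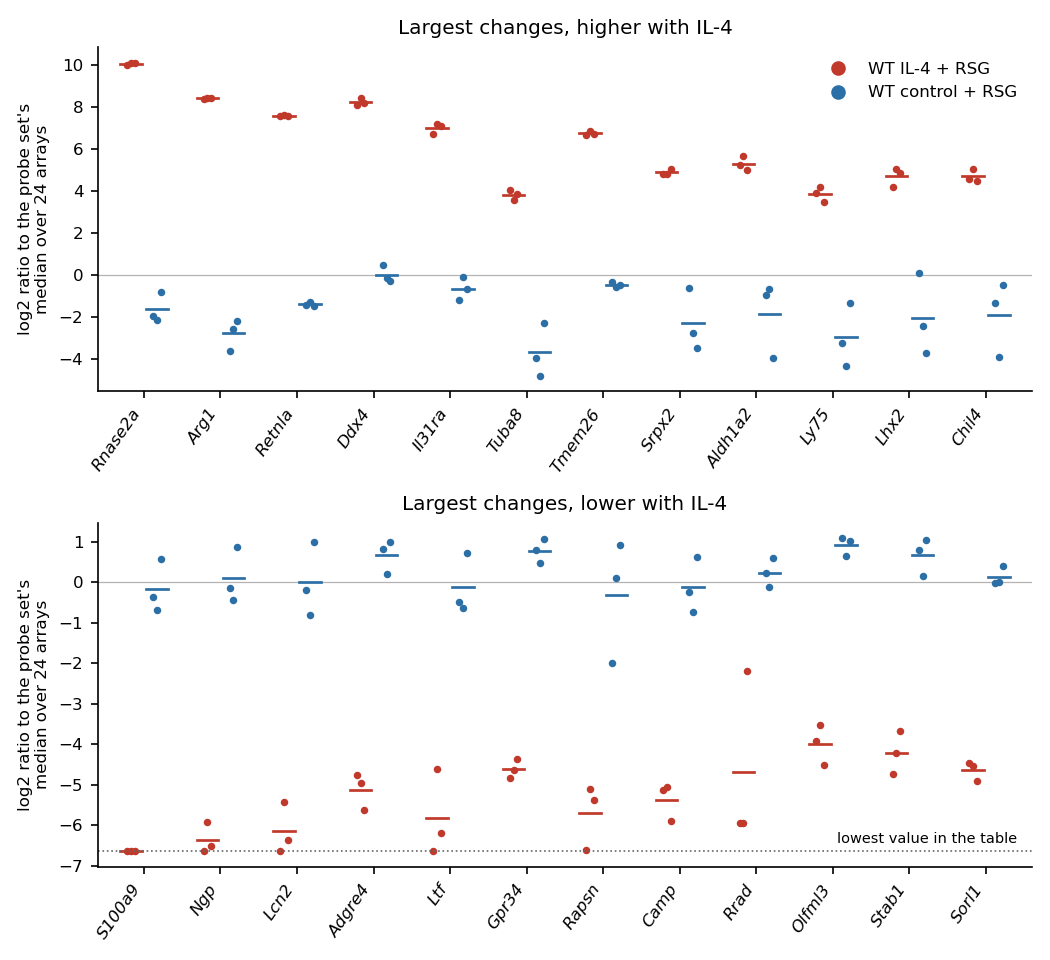
Log2 ratios of the 12 genes with the largest called increase and the 12 with the largest called decrease, with 1 point per mouse for IL-4+RSG (left of each pair) and control+RSG macrophages (right), and a bar at the mean; the dotted line is the lowest ratio of the table. The groups of each gene do not overlap, which the choice of genes required, and the 3 IL-4+RSG points of S100a9 lie at the lowest ratio of the table.

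Pparg and a part of its lipid gene program rose with IL-4 although RSG was present in both groups. Of 22 members of the lipid uptake and storage list, 8 were called higher and 0 lower (median 0.68), against 8.24% and 5.94% of all genes. In that list 12 were called higher when the median over each gene's probe sets was tested instead. Pparg, Fabp4, Cd36, Scd1, Angptl4 and Pdk4 were chosen from the study's text. The study reported that IL-4 induced Pparg in such macrophages and augmented the RSG induction of Fabp4 and Angptl4. The direction of these 3 genes is therefore not independent evidence. Pparg had log2 ratios of 1.31, 1.31 and 1.38 in IL-4+RSG macrophages, against -0.96, -0.03 and -0.66 in control+RSG macrophages, a difference of 1.88 ± 0.24 (3.68-fold; adjusted p = 2.11e-05). Cd36, the fatty acid and oxidised lipoprotein receptor, had log2 ratios of 2.27, 2.43 and 2.60 in IL-4+RSG macrophages, against 0.04, 0.47 and -0.10 in control+RSG macrophages, a difference of 2.30 ± 0.20 (4.92-fold; adjusted p = 1.61e-07). Both genes were higher in each IL-4+RSG array than in any control array, and for Pparg the IL-4+RSG arrays were nearly equal. Fabp4, the fatty acid carrier that served the study as its PPARγ target, had log2 ratios of 1.14, 1.28 and 1.41 in IL-4+RSG macrophages, against 0.07, 0.14 and 0.44 in control+RSG macrophages, a difference of 1.06 ± 0.20 (2.08-fold; adjusted p = 7.59e-04). Plin2, a lipid droplet coat protein, rose by 0.92 ± 0.13 (adjusted p = 6.43e-05) and the fatty acid transporter Slc27a1 by 0.81. Olr1, the lectin-type receptor for oxidised lipoprotein, had log2 ratios of 4.18, 4.69 and 4.33 in IL-4+RSG macrophages, against -1.88, -1.31 and -1.87 in control+RSG macrophages, a difference of 6.08 ± 0.61, the largest of the list. The desaturases Scd1 and Scd2, which make monounsaturated fatty acids, rose by 3.83 ± 0.73 and 3.71 ± 0.41. Scd1 had log2 ratios of 3.24, 2.88 and 2.64 in IL-4+RSG macrophages, against -1.31, -1.09 and -0.33 in control+RSG macrophages. Angptl4, a secreted inhibitor of lipoprotein lipase and a PPAR target, had log2 ratios of 1.81, 2.05 and 1.96 in IL-4+RSG macrophages, against 0.03, 0.36 and 0.75 in control+RSG macrophages. Its groups did not overlap, but its difference of 1.56 ± 0.56 did not pass the test (adjusted p = 0.0618), whereas it passed when the 6 compared arrays were fitted alone (0.0214). Pdk4, a pyruvate dehydrogenase kinase and PPAR target, did not pass (0.74 ± 1.01; adjusted p = 0.714); its value was -0.00 without mouse 2 and -0.03 without the control+RSG array of mouse 2. Fabp5 (0.06), Lpl (0.39, under the fold threshold), Cpt1a (0.17), the heterodimer partner Rxra (-0.03) and the related receptor Ppard (0.25) were not called.

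Targets of LXR, the oxysterol receptor that acts downstream of PPARγ in cholesterol efflux, were called in both directions. Of 13 members, 4 were called higher and 3 lower (median 0.22), against 8.24% and 5.94% of all genes. The efflux transporter Abcg1 rose by 1.38 ± 0.23 (adjusted p = 2.39e-04), the receptor gene Nr1h3 itself by 1.06, the lipid transfer protein Pltp by 1.00 and the phospholipid-remodelling enzyme Lpcat3 by 0.81. The 3 apolipoprotein genes of the list, which lie in 1 cluster of the mouse genome, all fell. Apoe had log2 ratios of -2.16, -2.18 and -1.43 in IL-4+RSG macrophages, against 0.20, 0.11 and 0.24 in control+RSG macrophages, a difference of -2.11 ± 0.19 (adjusted p = 4.30e-07), and Apoc2 and Apoc1 fell by 1.64 and 1.52. Abca1 (0.22), Srebf1 (0.47, under the fold threshold) and Mylip (-0.36) were not called. For cholesterol synthesis, 2 of 15 members were called higher and 1 lower, near the background share. Dhcr7, the last enzyme of the pathway, rose by 2.12 ± 0.25. Nsdhl (0.62) and Idi1 (-0.93) passed the test, but both lost the call without mouse 2 (adjusted p = 0.202 and 0.0587) or mouse 3 (0.113 and 0.301), and Idi1 also without mouse 1 (0.204).

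A part of the genes of mitochondrial energy production and of glycolysis rose, and none of these lists had a member called lower. Of 21 genes of fatty acid oxidation, 8 were called higher and 0 lower (median 0.57), against 8.24% and 5.94% of all genes. Ppargc1b, a coactivator of mitochondrial gene expression, had log2 ratios of 1.05, 1.12 and 1.07 in IL-4+RSG macrophages, against -0.46, -0.46 and -0.17 in control+RSG macrophages, a difference of 1.44 ± 0.15 (adjusted p = 1.47e-06). The electron transfer flavoprotein subunits Etfb and Etfa rose by 1.25 and 0.99, and the subunits of the trifunctional protein, Hadha and Hadhb, by 1.13 and 0.98. Acadvl (0.57) stayed under the fold threshold and Acadm (0.05) and Acadl (3.40) did not pass the test. Of 19 genes of oxidative phosphorylation and the TCA cycle, 7 were called higher and 0 lower (median 0.53), and 13 were higher in every IL-4+RSG array than in any control array, against 20.2% of all genes. Cytochrome c (Cycs) had log2 ratios of 0.97, 1.08 and 1.22 in IL-4+RSG macrophages, against -0.45, -0.40 and -0.53 in control+RSG macrophages, a difference of 1.55 ± 0.13 (adjusted p = 1.18e-07). The ATP synthase subunits Atp5b and Atp5a1 rose by 1.28 and 1.04. Idh3a, a subunit of isocitrate dehydrogenase, rose by 1.12 but lost the call without mouse 1 (adjusted p = 0.0678), without mouse 3 (0.149) and without the IL-4+RSG or the control+RSG array of mouse 3 (0.0595 and 0.0941). Of 18 genes of glycolysis and the hypoxia response, 8 were called higher and 0 lower (median 0.62). The glucose transporter Slc2a1 (GLUT1) rose by 1.60 ± 0.22, phosphofructokinase Pfkp by 1.79 ± 0.11, lactate dehydrogenase Ldha by 1.53 ± 0.15 and pyruvate kinase Pkm by 1.07. Egln3, a prolyl hydroxylase that acts on hypoxia-inducible factors, rose by 2.13 ± 0.33, whereas Hif1a (-0.86) and the hexokinase gene Hk2 (0.08) did not pass the test. Of the called genes in these 3 lists, Egln3 alone reached 4-fold.

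Some genes of arginine metabolism and of the amino acid response rose with Arg1. Of 13 genes of arginine and polyamine metabolism, 6 were called higher and 0 lower (median 0.55), against 8.24% and 5.94% of all genes. The cationic amino acid transporter Slc7a2, which brings arginine into the cell, had log2 ratios of 5.08, 4.20 and 5.07 in IL-4+RSG macrophages, against 0.85, -3.18 and -0.16 in control+RSG macrophages, a difference of 5.62 ± 0.93 (adjusted p = 2.84e-04). The control arrays of mice 1 and 2 lay far apart, and leaving out 1 mouse or array moved the difference between 4.44 without the control+RSG array of mouse 2 and 6.46 without the control+RSG array of mouse 1. The related transporter Slc7a1 rose by 1.87, Aldh18a1, which starts proline synthesis from glutamate, by 1.71, the polyamine enzyme Odc1 by 0.72 and its activator Azin1 by 0.97. Arg2 (-0.06), Ass1 (0.14) and Srm (0.55) did not pass the test. Of 17 genes of the amino acid and ER stress response, 9 were called higher and 0 lower (median 1.17). Serine synthesis led this list: Phgdh, its entry enzyme, had log2 ratios of 1.56, 1.60 and 2.26 in IL-4+RSG macrophages, against -1.55, -1.28 and -1.69 in control+RSG macrophages, a difference of 3.32 ± 0.38 (adjusted p = 6.42e-06), and Psat1, the next enzyme, rose by 3.14 ± 0.26. Trib3, a pseudokinase induced by ATF4, rose by 2.65 ± 0.31 and asparagine synthetase Asns by 2.07 ± 0.24. The transporter Slc7a5 rose by 3.00 ± 0.86, and this call was lost without mouse 1, 2 or 3 (adjusted p = 0.134, 0.166 and 0.103) and without 4 of the 6 single arrays (0.0576 to 0.0735). The called members were mainly amino acid enzymes, transporters and the factors Atf3 and Ddit3. The ER chaperones Hspa5 (0.02) and Hsp90b1 (0.24), Xbp1 (0.50) and Atf4 itself (0.24) did not pass.

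Several genes of osteoclasts and of macrophage fusion rose by large amounts. Of 17 members measured, 9 were called higher and 2 lower (median 1.21), against 8.24% and 5.94% of all genes. Acp5, the tartrate-resistant acid phosphatase used as an osteoclast marker, had log2 ratios of 4.29, 4.24 and 3.96 in IL-4+RSG macrophages, against -1.66, -1.12 and -0.91 in control+RSG macrophages, a difference of 5.39 ± 0.53 (adjusted p = 9.26e-07). Ctsk, the collagen-degrading cathepsin K, had log2 ratios of 5.03, 4.97 and 5.12 in IL-4+RSG macrophages, against -0.72, -0.07 and -0.20 in control+RSG macrophages, a difference of 5.37 ± 0.39 (adjusted p = 1.94e-08). Both were separated in all 3 mice. The fusion proteins Ocstamp and Dcstamp rose by 6.31 ± 1.11 and 2.89 ± 0.40, the adhesion molecule E-cadherin (Cdh1), known to be induced by IL-4 in macrophages, by 6.03 ± 0.95, carbonic anhydrase Car2 by 4.78 ± 0.70 and the β3 integrin Itgb3 by 4.18 ± 0.91. Ocstamp moved between 5.87 without mouse 2 and 7.17 without mouse 3, and Cdh1 between 5.25 without the control+RSG array of mouse 1 and 6.54 without the control+RSG array of mouse 3, when 1 mouse or array was left out. Oscar (-1.37), a costimulatory receptor of osteoclasts, and the tetraspanin Cd81 (-1.57) fell. Nfatc1, the master factor of osteoclasts (0.25), the calcitonin receptor gene Calcr (-0.09) and Mmp9 (0.19) did not pass the test.

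Antigen presentation genes rose in part. Of 15 genes of MHC class II and costimulation, 8 were called higher and 2 lower (median 1.59), against 8.24% and 5.94% of all genes. The MHC class II β chain gene H2-Ab1 had log2 ratios of 0.72, 0.85 and 0.56 in IL-4+RSG macrophages, against -2.10, -1.86 and -1.89 in control+RSG macrophages, a difference of 2.67 ± 0.34 (adjusted p = 1.88e-05). The invariant chain Cd74 rose by 2.50 ± 0.31, H2-Aa by 2.30 and H2-Eb1 by 2.00. Itgax (CD11c), an integrin chain of dendritic cells and some macrophages, had log2 ratios of 3.06, 3.02 and 2.93 in IL-4+RSG macrophages, against -2.04, -0.99 and -1.35 in control+RSG macrophages, a difference of 4.46 ± 0.36 (adjusted p = 7.53e-08). The inhibitory ligands Pdcd1lg2 and Cd274 (PD-L1) rose by 5.02 and 2.14, while the costimulator Cd86 had log2 ratios of -2.24, -2.30 and -1.65 in IL-4+RSG macrophages, against 0.54, -0.01 and 0.43 in control+RSG macrophages and fell (-2.39 ± 0.20; adjusted p = 1.42e-07), as did Cd83 (-1.20). Cd80 (1.25), Cd40 (0.02) and the class II transactivator Ciita (1.59) did not pass.

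Some secreted proteases and transcription factors changed with them. Of 15 matrix proteases and inhibitors, 6 were called higher and 1 lower (median 0.58), against 8.24% and 5.94% of all genes. The collagenase Mmp13 rose by 4.73 ± 0.29, the macrophage elastase Mmp12 by 2.99 ± 0.24 and the lysosomal cathepsin Ctsl by 3.26 ± 0.17, and the membrane-bound Mmp14 fell by 2.95. Ctsl had log2 ratios of 3.17, 2.92 and 3.04 in IL-4+RSG macrophages, against -0.40, 0.17 and -0.42 in control+RSG macrophages. Of 15 immediate-early and related factors (the AP-1 and EGR list), 5 were called higher and 4 lower (median 0.22). Egr2 had log2 ratios of 2.50, 2.43 and 2.55 in IL-4+RSG macrophages, against -0.72, -0.55 and -0.25 in control+RSG macrophages, a difference of 3.01 ± 0.21 (adjusted p = 1.15e-08). Its relative Egr3 differed by -2.16 ± 0.34 (-1.57 without mouse 3), and Egr1 by -0.87 without passing the test. The repressor Bhlhe40 rose by 3.41 ± 0.31 and Jun by 1.97. Maf, the c-Maf factor of resident-type macrophages, had log2 ratios of -3.07, -3.35 and -3.04 in IL-4+RSG macrophages, against 1.11, 0.33 and 0.93 in control+RSG macrophages, a difference of -3.94 ± 0.20 (adjusted p = 3.84e-10). No array of one group overlapped the other for Egr2 or Maf. Fos (0.09) and Junb (0.22) did not pass.

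Many inflammatory genes fell. Of 24 proinflammatory cytokines and mediators, 12 were called lower and 1 higher (median -1.47), against 5.94% of all genes lower, and 15 were lower in every IL-4+RSG array than in any control array, against 13% of all genes. Tlr2, the receptor for bacterial lipopeptides, had log2 ratios of -4.27, -3.75 and -5.16 in IL-4+RSG macrophages, against 0.09, -0.19 and 0.41 in control+RSG macrophages, a difference of -4.50 ± 0.25 (adjusted p = 1.02e-09). The chemokine gene Ccl3 had log2 ratios of -3.90, -3.90 and -3.97 in IL-4+RSG macrophages, against -0.05, -0.40 and 0.11 in control+RSG macrophages, a difference of -3.81 ± 0.23 (adjusted p = 2.09e-09). For both, every IL-4+RSG array lay below the control arrays, and the IL-4+RSG arrays were close together for Ccl3 and more spread for Tlr2. The interferon-induced chemokine gene Cxcl10 fell by 2.85, the monocyte attractant Ccl2 by 2.66, the lipopolysaccharide co-receptor Cd14 by 2.60, Tnf by 1.55, Il1b by 1.48 and Il18 by 1.46. Ptgs2, which encodes cyclooxygenase-2, fell by 4.15 ± 1.07 (adjusted p = 0.0103), and this call was lost without mouse 1 (0.0668), without mouse 2 (0.124), without the IL-4+RSG array of mouse 2 (0.0636) and without the control+RSG array of mouse 3 (0.0515). The IL-4+RSG array of mouse 2 was at the lowest ratio of the table, and the difference lay between -5.21 without the IL-4+RSG array of mouse 3 and -3.31 without the IL-4+RSG array of mouse 2. Il1a was the only member that rose (1.32). Nos2, the inducible nitric oxide synthase of classical activation, had log2 ratios of -0.52, -0.59 and -1.88 in IL-4+RSG macrophages, against -2.03, -0.05 and -0.09 in control+RSG macrophages, which overlapped (-0.27 ± 0.73; adjusted p = 0.869), and its sign turned without mouse 3 (0.48). Il6 (1.77), Il12b (-1.62), Ccl5 (-0.12) and Tlr4 (0.38) did not pass either.

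Called interferon-stimulated genes moved down, with 1 exception. Of 19 members, 9 were called lower and 1 higher (median -0.61), against 5.94% and 8.24% of all genes. Oas3, a sensor of double-stranded RNA, had log2 ratios of -2.01, -1.51 and -3.46 in IL-4+RSG macrophages, against -0.18, 0.13 and 0.67 in control+RSG macrophages, a difference of -2.53 ± 0.47 (adjusted p = 7.44e-04). Oas2 fell by 2.11, and the antiviral genes Ifit3, Ifit1 and Mx1 by 1.86, 1.62 and 1.84. Without mouse 3 the differences of Oas3 and Oas2 were -1.73 and -1.51. Usp18, which removes ISG15 from proteins and restrains the interferon receptor, had log2 ratios of 1.61, 1.56 and 1.38 in IL-4+RSG macrophages, against -0.79, -0.96 and -0.54 in control+RSG macrophages and rose (2.28 ± 0.24; adjusted p = 2.32e-06). It was the only one of the 19 whose IL-4+RSG arrays were raised by a called amount.

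Receptors for apoptotic cells, Fc receptors and complement genes changed in both directions, with more decreases. Of 17 scavenger and efferocytosis receptors, 7 were called lower and 3 higher (median -0.36), against 5.94% and 8.24% of all genes. Axl, a receptor kinase for apoptotic cells, had log2 ratios of -2.74, -2.63 and -2.62 in IL-4+RSG macrophages, against 0.24, 0.45 and 0.73 in control+RSG macrophages, a difference of -3.14 ± 0.20 (adjusted p = 4.39e-09). Its ligand Gas6 had log2 ratios of -2.64, -3.06 and -2.56 in IL-4+RSG macrophages, against 0.98, 0.45 and 0.85 in control+RSG macrophages, a difference of -3.51 ± 0.18 (adjusted p = 4.39e-10). Receptor and ligand thus fell in the same mice. The scavenger receptor Marco fell by 4.08 ± 0.82 and moved between -5.27 without mouse 2 and -3.03 without mouse 1 on leaving out 1 mouse or array. Cd5l, a macrophage-secreted protein, fell by 3.06 and the haemoglobin receptor Cd163 by 1.96. Cd36, the bridging protein Mfge8 (1.45) and the collectin receptor Colec12 (1.60) rose, and Mertk (-0.26) and Msr1 (0.53) did not pass the test. Of 15 Fc receptors and complement genes, 4 were called lower and 3 higher (median -0.39). The high-affinity IgG receptor Fcgr1 had log2 ratios of -3.57, -2.83 and -2.70 in IL-4+RSG macrophages, against 0.01, 0.44 and 0.35 in control+RSG macrophages, a difference of -3.30 ± 0.25 (adjusted p = 3.79e-08). The chains of C1q, which starts the classical complement pathway, fell together: C1qa by 1.82, C1qb by 0.99 and C1qc by 1.57. Fcgr4, an activating IgG receptor, rose by 1.06.

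Chemokine, chemokine receptor and eicosanoid genes were called in both directions. Of 14 chemokine receptors and other chemokines, 5 were called higher and 4 lower (median 0.25). Ccl8 and the receptor Ccr1 rose by 2.78 ± 0.41 and 2.36 ± 0.20. The monocyte receptors Ccr2 and Cx3cr1 fell by 2.16 and 2.15. Cx3cr1, the fractalkine receptor, had log2 ratios of -2.45, -2.13 and -4.24 in IL-4+RSG macrophages, against -0.88, -1.05 and -0.47 in control+RSG macrophages, and its difference was -1.33 without mouse 3. Of 14 eicosanoid genes, 2 were called higher and 3 lower (median -0.11), against 8.24% and 5.94% of all genes. Pla2g4a, the phospholipase that releases arachidonic acid, rose by 1.53 ± 0.21, and the prostaglandin D synthase gene Hpgds fell by 1.57. Pla2g7 (0.65) passed the test, but not without mouse 1 (adjusted p = 0.108), without mouse 2 (0.189) or without the IL-4+RSG array of mouse 3 (0.138) or the control+RSG array of mouse 1 or 2 (0.119 and 0.125). Alox15 (-0.46) and Alox5 (0.43), the lipoxygenases, did not pass.

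A part of the proliferation genes was called, in both directions. Of 21 members, 4 were called lower and 3 higher (median -0.31), against 5.94% and 8.24% of all genes. Mki67, which encodes the proliferation antigen Ki-67, had log2 ratios of -2.67, -1.82 and -2.56 in IL-4+RSG macrophages, against -0.21, -0.16 and -0.13 in control+RSG macrophages, a difference of -2.18 ± 0.23 (adjusted p = 1.90e-06). Topoisomerase Top2a fell by 1.77 and the mitotic kinase Cdk1 by 0.95. Birc5 (survivin) fell by 1.86 ± 0.62 (adjusted p = 0.0456), a call lost without mouse 1, 2 or 3 (adjusted p = 0.0772, 0.0631 and 0.116) and without each single array except the IL-4+RSG array of mouse 2. Without that array the difference was -2.45. The G1 cyclin Ccne1 rose by 1.70 ± 0.38, the replication clamp Pcna by 0.69 and the helicase subunit Mcm7 by 0.61. Mitotic genes such as Ccnb2 (-1.28), Bub1 (-1.38) and Plk1 (-0.31) did not pass. Under vehicle 12 of the 21 were called lower and 1 higher with IL-4, against 6.67% and 7.24% of all genes, and their values stand side by side with those under RSG: Ccnb2 -1.28 under RSG and -5.54 under vehicle, Bub1 -1.38 and -5.21, Mki67 -2.18 and -3.76. None of the 21 passed the test of the difference between these responses.

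**Figure D3:**
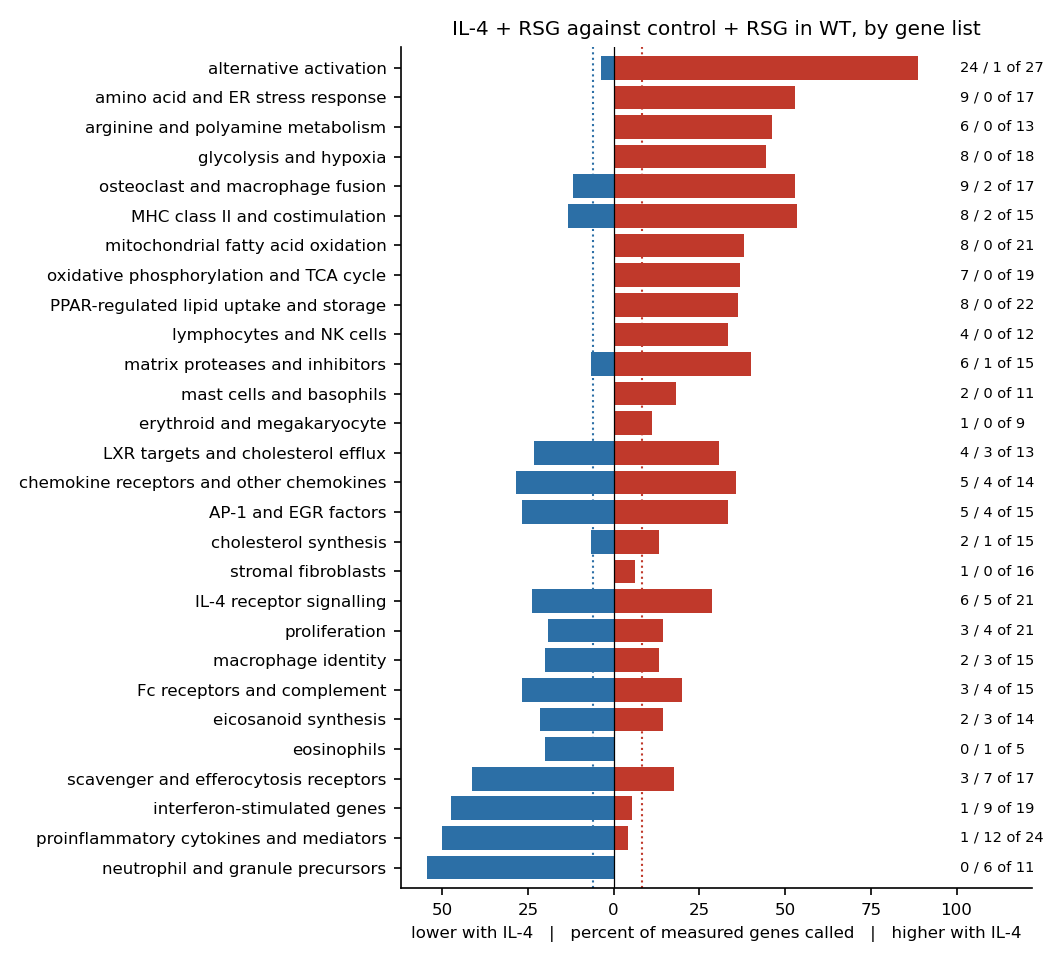
Percent of the measured genes of each of the 28 lists called higher (bars to the right of 0) or lower (bars to the left) in IL-4+RSG than in control+RSG macrophages, with the counts at the right as higher / lower of measured. Dotted lines mark the shares of all 18193 genes, 8.24% higher and 5.94% lower, and the alternative activation list has the longest bar to the right with 24 of 27.

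Markers of other cell types were checked in the same arrays. The macrophage identity genes had 2 of 15 called higher and 3 lower, against 8.24% and 5.94% of all genes. Their mean log2 ratio was -0.40, -0.35 and -0.23 in the IL-4+RSG arrays, against -0.02, -0.01 and 0.18 in the control+RSG arrays. The called members were Maf, Fcgr1 and Cd14, which fell, and Cebpb (1.22) and Itgam (0.99), which rose. Of 11 genes of neutrophils and granule precursors, 6 fell and 0 rose (median -3.10), and the list mean was -3.62, -2.97 and -3.85 in the IL-4+RSG arrays, against -0.32, -0.73 and 0.14 in the control+RSG arrays. The genes called were those of calprotectin (S100a9 and S100a8) and of the granule proteins Ngp, Lcn2, Ltf and Camp, whereas the primary granule genes Mpo (-0.82), Elane (0.11), Prtn3 (-1.79) and Ctsg (0.30) did not pass the test. The ratios give no absolute level, so whether a marker is at or near background is not known here.

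Of 11 mast cell and basophil genes, 2 rose and 0 fell (median 1.94), against 8.24% and 5.94% of all genes. The list mean was 0.80, 1.37 and -0.01 in the IL-4+RSG arrays, against -1.54, -1.07 and -0.47 in the control+RSG arrays. The protease gene Cpa3 had log2 ratios of 1.97, 2.73 and 0.92 in IL-4+RSG macrophages, against -5.98, -0.83 and -0.69 in control+RSG macrophages, a difference of 4.37 ± 1.02 (adjusted p = 0.00495), and leaving out 1 mouse or array moved it between 2.58 without mouse 1 and 5.75 without mouse 3. Its call was lost in the 12 WT arrays alone (adjusted p = 0.0625) and in the 6 compared arrays alone (0.171). Fcer1a, a chain of the IgE receptor, rose by 4.13 ± 0.65, moved between 3.41 without mouse 1 and 5.13 without mouse 3, and lost its call under a variance trend (adjusted p = 0.339). The other defining markers Cma1 (2.30), Hdc (2.03) and Mcpt8 (1.94) did not pass. Of 12 lymphocyte and NK cell genes, 4 rose and 0 fell (median 0.45), and the list mean was 0.28, 0.36 and 0.10, against -1.15, -0.86 and -0.37. The granzyme gene Gzma had log2 ratios of 3.35, 4.16 and 4.06 in IL-4+RSG macrophages, against -1.80, -1.79 and -1.50 in control+RSG macrophages, a difference of 5.55 ± 0.54 (adjusted p = 8.91e-07). Gzmb rose by 5.55 ± 1.27, a call lost without mouse 1 (adjusted p = 0.0515). Cd3d (2.50) lost its call without mouse 1 or 2 (0.185 and 0.247) and without each single array but the control+RSG array of mouse 3, which raised it to 3.23, and Nkg7 (1.52) without mouse 2 (0.135), the IL-4+RSG array of mouse 3 (0.0614) or the control+RSG array of mouse 1 (0.0721). The other T and B cell markers Cd3e (-0.61), Cd3g (1.14), Cd79a (-1.08) and Ms4a1 (-0.84) did not pass.

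Of 5 eosinophil genes only Prg2 was called (-4.14 ± 0.85, lower, between -4.94 without mouse 2 and -3.36 without mouse 3). Among all genes, 8.24% were called higher and 5.94% lower. The eosinophil mean was -1.03, -1.30 and -2.28 in the IL-4+RSG arrays, against -1.28, -0.31 and -0.50. Of 9 erythroid and megakaryocyte genes only Itga2b was called (0.98), and not without mouse 1 or 3 (adjusted p = 0.281 and 0.0915), without the IL-4+RSG array of mouse 1 (0.189), without the control+RSG array of mouse 1 or 3 (0.0961 and 0.131), or with mouse as a block (0.0622). Their mean was -0.36, -0.11 and -0.33, against -0.63, -0.36 and 0.01. Of 16 stromal fibroblast genes only Pdgfra was called, near the background share. It had log2 ratios of 3.81, 4.24 and 3.76 in IL-4+RSG macrophages, against -0.79, -2.06 and -1.71 in control+RSG macrophages, a difference of 5.45 ± 1.42 (adjusted p = 0.0110), and lost the call without mouse 1, 2 or 3 (0.0596, 0.0837 and 0.0678). The fibroblast mean was -0.06, 0.81 and -0.59 in the IL-4+RSG arrays, against -0.37, 0.17 and -0.28 in the control+RSG arrays, and the collagen genes Col1a1 (0.99), Col1a2 (-0.06) and Col3a1 (0.35) did not pass. The called neutrophil, mast cell and lymphoid genes thus moved with the comparison, and their part in the other results was not tested.

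**Figure D4:**
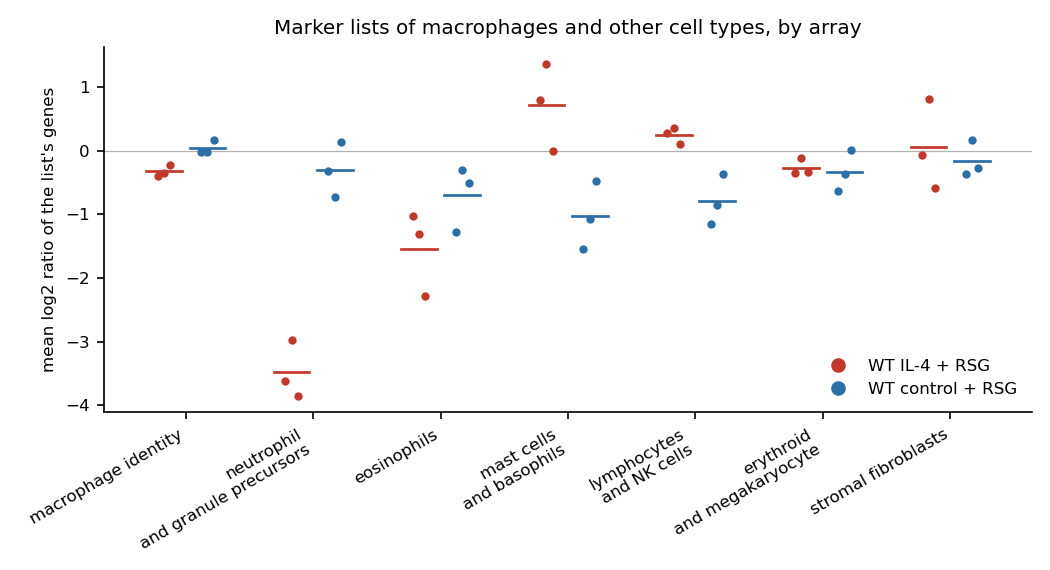
Mean log2 ratio of the members of each cell type list (vertical axis) in the arrays of the 3 IL-4+RSG mice (left) and the 3 control+RSG mice (right), 1 point per mouse and a bar at the mean. Neutrophil genes lie between -3.85 and -2.97 with IL-4+RSG, below the control arrays at -0.73 to 0.14, while the means of the macrophage list differ by less than 1.

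The IL-4 response under RSG was then set against the response of the same mice under vehicle, which used other arrays. Under vehicle 5831 probe sets were called (12.9%). Of the 6065 called under RSG, 3898 (64.3%) were called in the same direction under vehicle, a share of 66.8% of the calls under vehicle, and 7 in the opposite direction. Of called genes, 1760 were shared (68.2% of those under RSG and 69.6% of those under vehicle), and 4 were opposite. The alternative activation list had 22 of 27 genes called higher under vehicle, against 24 under RSG, where 7.24% and 8.24% of all genes were called higher. The vehicle count includes the control array of mouse 3, in which this list averaged 1.05, against -0.92 and -0.89 in those of mice 1 and 2. The list was not recounted without that array. Arg1 differed by 11.21 under RSG and 9.68 under vehicle, Retnla by 8.98 and 7.06, and Cd36 by 2.30 and 2.45. The test of the difference between the responses did not pass for any of these 3 genes. The vehicle control array of mouse 3 stood far above the others for Arg1 and Retnla, whose log2 ratios with vehicle alone were -3.38, -2.71 and 2.19 and -1.89, -2.10 and 5.88. Without that array, a setting chosen after the data were seen, their differences under vehicle were 11.43 and 9.68, above those under RSG, and that of Cd36 was 2.50.

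Few probe sets were called for RSG itself. Without IL-4, 53 were called (0.118%) and with IL-4 310 (0.688%), and the difference between these shares was not tested. In the same limma tests 3406 and 4060 probe sets had an unadjusted p under 0.05. The comparison without IL-4 used the WT vehicle control arrays of mice 2 and 3, which stood apart. Such counts do not show that the other transcripts were unchanged. Pparg had log2 ratios of 1.31, 1.31 and 1.38 with IL-4+RSG, against 2.54, 2.69 and 2.50 with IL-4 and vehicle, and fell with RSG in the presence of IL-4 (-1.25 ± 0.24; adjusted p = 0.0187). Angptl4 had log2 ratios of 1.81, 2.05 and 1.96 with IL-4+RSG, against -0.50, -0.33 and -2.61 with IL-4 and vehicle, and rose (3.09 ± 0.56; adjusted p = 0.00995). Its difference for RSG without IL-4 was 2.41 ± 0.56 (adjusted p = 0.116). Other PPARγ targets did not pass this test in the presence of IL-4, with differences of 2.34 ± 0.73 for Scd1, 0.57 ± 0.20 for Fabp4, 0.49 ± 0.20 for Cd36, 0.31 ± 0.13 for Plin2 and 0.90 ± 1.01 for Pdk4.

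The IL-4 response differed between RSG and vehicle for 13 of 45037 probe sets (0.0289%), 8 with the higher difference under RSG (0.0178%) and 5 with the lower (0.0111%), and 2736 reached an unadjusted p under 0.05. The response of Axl, called in both settings, was smaller under RSG. Its log2 ratios were -2.74, -2.63 and -2.62 in IL-4+RSG macrophages, against 0.24, 0.45 and 0.73 in control+RSG macrophages, and -5.85, -5.28 and -5.22 with IL-4 and vehicle, against -0.94, -0.52 and -0.13 with vehicle alone, so the IL-4 differences were -3.14 under RSG and -4.92 under vehicle, a gap of 1.78 ± 0.28 (adjusted p = 0.0400). Nfkbiz, an inducible IκB protein, had log2 ratios of -2.83, -3.08 and -2.63 in IL-4+RSG macrophages, against 0.05, -0.23 and 0.39 in control+RSG macrophages, and -5.72, -6.39 and -6.64 with IL-4 and vehicle, against -0.23, 0.35 and 0.25 with vehicle alone, with mouse 3 at the lowest ratio of the table. IL-4 lowered it in both settings (-2.91 and -6.37), by less under RSG, a gap of 3.46 ± 0.39 (adjusted p = 0.00277). Pttg1, the mitotic securin, had log2 ratios of -1.55, -1.03 and -0.08 in IL-4+RSG macrophages, against -1.52, -1.34 and -1.38 in control+RSG macrophages, and -3.42, -3.30 and -4.28 with IL-4 and vehicle, against -0.84, -0.72 and -1.17 with vehicle alone. It was not called under RSG (0.53) and fell under vehicle (-2.76), a gap of 3.29 ± 0.49 (adjusted p = 0.0307). Sema4b, a semaphorin, had log2 ratios of 1.15, 1.5 and 0.92 in IL-4+RSG macrophages, against 0.48, 0.70 and -0.71 in control+RSG macrophages, and 1.64, 1.19 and 1.53 with IL-4 and vehicle, against -2.74, -3.46 and -1.91 with vehicle alone. It was not called under RSG (1.03) and rose under vehicle (4.16), a gap of -3.13 ± 0.51 (adjusted p = 0.0418). For these 4 genes, which the naming rule picked, the IL-4 effect under RSG was the smaller of the pair. Each result is that of the 1 probe set that represents the gene. Nfkbiz and Pttg1 have 3 probe sets each and Axl and Sema4b have 2, and no other probe set of these genes was among the 13.

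The remaining probe sets of the 13 were chosen for description after their values were seen. Tgm2, a transglutaminase of alternative activation, had on 1 of its probe sets log2 ratios of 2.55, 2.97 and 2.69 in IL-4+RSG macrophages, against -0.25, -0.54 and -0.07 in control+RSG macrophages, and 1.76, 1.52 and 1.87 with IL-4 and vehicle, against 0.61, -0.13 and 0.22 with vehicle alone, so IL-4 raised it by 3.02 under RSG and 1.48 under vehicle, a gap of 1.54 ± 0.25 (adjusted p = 0.0418). Acaa2, the thiolase that ends each round of mitochondrial fatty acid oxidation, had on 1 of its probe sets log2 ratios of 1.33, 1.21 and 1.48 in IL-4+RSG macrophages, against 0.12, 0.16 and 0.22 in control+RSG macrophages, and 0.20, 0.28 and 0.15 with IL-4 and vehicle, against 0.02, 0.08 and 0.08 with vehicle alone. It rose with IL-4 under RSG (1.17) and was not called under vehicle (0.15), a gap of 1.02 ± 0.15 (adjusted p = 0.0223). Prkcb, a protein kinase C, had on 1 of its probe sets log2 ratios of -1.72, -1.92 and -1.58 in IL-4+RSG macrophages, against 0.32, -0.23 and 0.25 in control+RSG macrophages, and 0.42, 0.42 and 0.25 with IL-4 and vehicle, against 0.91, 0.76 and 0.53 with vehicle alone. It fell under RSG (-1.85) and was not called under vehicle (-0.37), a gap of -1.49 ± 0.25 (adjusted p = 0.0418). Brca1, a DNA repair gene, rose by 3.09 under RSG and was not called under vehicle (0.57), a gap of 2.51 ± 0.33 (adjusted p = 0.0160) on 1 of its probe sets. Mbnl3, a splicing regulator, rose with IL-4 under RSG (0.97) and fell under vehicle (-0.98) on 1 of its probe sets, a gap of 1.96 ± 0.32 (adjusted p = 0.0418). Emb, a lactate transporter partner, fell in both settings on 1 of its probe sets (-1.84 and -0.87), a gap of -0.97 ± 0.16 (adjusted p = 0.0418). Slc7a14, of the cationic transporter family, had on 1 of its probe sets a gap of -5.33 ± 0.74 (adjusted p = 0.0197) and was not called under RSG (-1.31). The other 2 probe sets had no symbol listed. For these genes the larger IL-4 effect was under RSG for Tgm2, Acaa2, Prkcb, Brca1 and Emb, and under vehicle for Slc7a14, while the call of Mbnl3 was in opposite directions.

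The count of 13 depended on the arrays and the fit. It was 5 with mouse as a block (3 of them among the 13) and 5 with a variance trend, 8 with quantile normalization (75% of them higher under RSG) and 35 with each array centred on its median, which held all 13. It was 7 without mouse 1, 12 without mouse 3 (3 of them among the 13), and 0 without mouse 2, by the same limma test, with 2275 probe sets at an unadjusted p under 0.05. It was 0 in the 12 WT arrays fitted alone, with 2734 at an unadjusted p under 0.05. Leaving out the IL-4+RSG array of mouse 1 gave 7 and that of mouse 2 gave 1, and leaving out the control+RSG array of mouse 1 or 2 gave 4 each. Of single vehicle arrays, leaving out the IL-4 array of mouse 2 or the control array of mouse 1 gave 6 each, the IL-4 array of mouse 3 gave 23 and the control array of mouse 3 gave 20. Without the WT vehicle control arrays of mice 2 and 3 it was 35, 7 of them among the 13. That setting and leaving out single RSG arrays here were chosen after the data were seen.

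**Figure D5:**
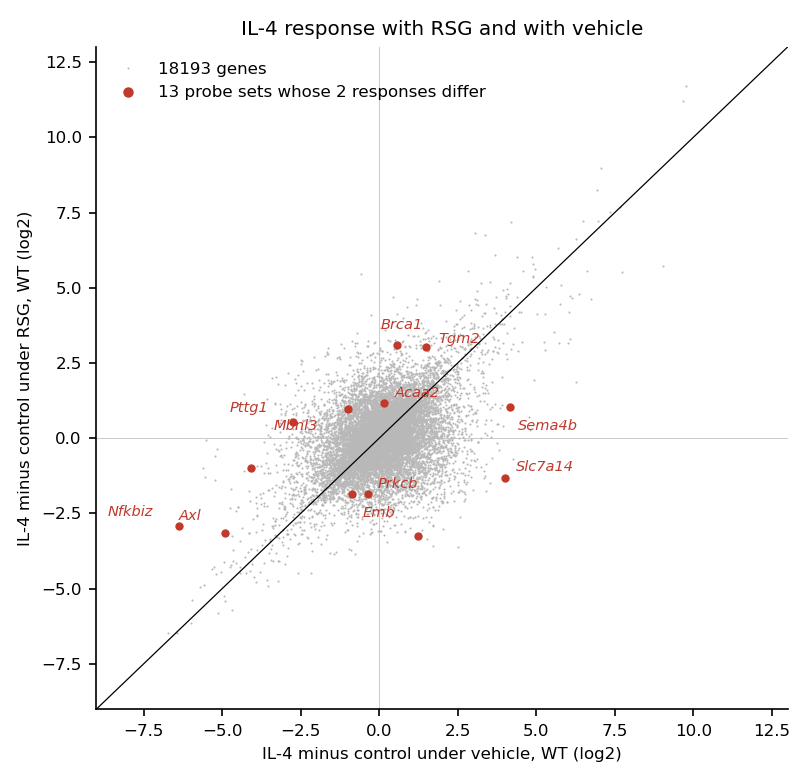
IL-4 difference in WT macrophages under RSG (vertical axis) against that under vehicle (horizontal axis), both on the log2 scale. Small grey points are the 18193 genes and larger points the 13 probe sets whose responses differed by a called amount, such as Axl at -3.14 under RSG and -4.92 under vehicle; the line marks equal responses.

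The last comparison set the IL-4 response under RSG in WT against that in STAT6 KO macrophages, which tests whether the response differs between cultures of the 2 genotypes. In STAT6 KO macrophages 3076 probe sets were called (6.83%), 1436 higher and 1640 lower. The responses differed for 5041 probe sets (11.2%), 3379 with the higher difference in WT (7.5%) and 1662 with the lower (3.69%), and the median gap over all probe sets was 0.13. Of the alternative activation list, 11 of 27 genes rose in STAT6 KO macrophages (4.16% of all genes) and 1 fell (3.81%), against 24 and 1 in WT, and the response of 15 differed between the genotypes (12% of all genes). Arg1 rose by 11.21 in WT and by 4.52 in STAT6 KO macrophages, a gap of 6.69 ± 1.41 (adjusted p = 0.00408). Pparg rose by 1.88 in WT, with 0.08 and no call in STAT6 KO macrophages, a gap of 1.80 ± 0.34 (adjusted p = 0.00197). Fabp4 rose in WT (1.06) and fell in STAT6 KO macrophages (-1.04), a gap of 2.10 ± 0.28 (adjusted p = 6.25e-05), and Mrc1 did the same (1.25 and -0.71), a gap of 1.96 ± 0.29 (adjusted p = 1.93e-04). Cd36 had a gap of 1.80 ± 0.28 (adjusted p = 2.90e-04) and Scd1 of 4.10 ± 1.03 (adjusted p = 0.0133). These gaps were all called, and a call required 1.5-fold or more, so they lie above the median gap of 0.13 by that rule. Ccl17 and Chil3 rose by 2.61 and 2.59 in STAT6 KO macrophages, against 2.76 and 3.63 in WT, and their gaps of 0.14 ± 1.12 and 1.03 ± 0.51 did not pass the test. Nor did the gaps of Retnla (5.41 ± 1.83, adjusted p = 0.0656), Angptl4 (0.61 ± 0.79, 0.721), Pdk4 (1.24 ± 1.42, 0.678) and Plin2 (0.49 ± 0.19, 0.101).

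In STAT6 KO macrophages 0 of 21 fatty acid oxidation genes and 1 of 19 oxidative phosphorylation genes rose, against 4.16% of all genes higher and 3.81% lower. Other lists also rose there. Of 15 genes of MHC class II and costimulation, 11 were called higher and 0 lower (median 1.76), against 8 and 2 in WT. Of 17 osteoclast and fusion genes, 6 were called higher and 1 lower, against 9 and 2 in WT. Arginine and polyamine metabolism had 2 of 13 higher and 0 lower, against 6 and 0 in WT. The proinflammatory list had 10 of 24 genes higher and 0 lower in STAT6 KO macrophages, and the interferon-stimulated list 13 of 19 higher and 0 lower. The response of 16 of the 24 and 14 of the 19 differed between the genotypes, against 12% of all genes. Cxcl10 fell in WT (-2.85) and rose in STAT6 KO macrophages (1.96). Markers of other cells were higher with IL-4+RSG in STAT6 KO cultures: the neutrophil list had 11 of 11 genes higher with IL-4+RSG, with list means of 3.32, 3.62 and 3.49 in the IL-4+RSG arrays of mice 4 to 6, against 0.07, -0.24 and -0.14 in their control+RSG arrays. The mast cell and basophil list had 8 of 11 higher, with means of 5.04, 5.04 and 4.59, against -1.04, -0.51 and -1.04, and the lymphocyte list 9 of 12 higher, with means of 2.76, 3.21 and 2.81, against -1.50, -1.46 and -1.34. The fibroblast list had 1 higher and 4 lower, with means of 0.11, -0.50 and -0.45, against 1.21, 1.32 and 4.83, where mouse 6 stood apart. Their part in the difference between the genotypes was not tested. The count of 5041 was 3086 without mouse 2, 3351 without mouse 3 and 3333 without mouse 4.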

How the data were processed

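Total RNA of bone marrow-derived macrophages was hybridised to Affymetrix mouse arrays, 1 array per mouse and treatment. The authors took the scans through GC-RMA and GeneSpring, and the deposited table holds linear ratios of each probe set to its median over the 24 arrays. GCOS and GCRMA, without versions, stand in the processing notes of the submitters. The methods also name a division by the vehicle control, which the values do not carry. The median ratio was 1 within 0.001 for 86.3% of probe sets and below 1 for 13.7%, for a reason not given in the sources used here. Ratios ran from 0.01 to 1949.69, with 37 values in 27 probe sets at 0.01. There were 0 unused sample columns.

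Log2 of the ratios was used as it stood, and 45037 of 45101 probe sets (all but 64 array controls) were tested two-sided with limma 3.58.1 in R 4.3.3 (lmFit, eBayes without a trend; 24 arrays in 8 groups; residual degrees of freedom 16, prior 1.35). A call was an adjusted p (Benjamini-Hochberg over all probe sets) under 0.05 with 1.5-fold or more. Platform annotation gave 1 symbol for 34945 probe sets, several for 932 and none for 9160; 34741 matched the RefSeq table (GRCm38.p6), and 14 of 16 chosen genes (those of the study's text, with Plin2 and Nos2 added) had a named probe set. Each of 18193 genes was represented by its most specific probe set class, then by the largest interquartile range over all arrays.

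The members, the 28 gene lists (492 genes listed, 429 distinct genes measured) and the tests were chosen with earlier results of these data known. Genes named by rule were these, the 12 called genes that moved most each way without overlap of the groups, up to 4 called members of each list, and up to 6 called differences in each direction between RSG and vehicle; other list members are given to show values.

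The labels give a mouse number for each array, and arrays of 1 number come from the same mouse, so numbers pair the samples. Over 36 same-mouse pairs, deviations from group means correlated at -0.02 to 0.05 (mean 0.01), and 0 pairs exceeded 0.1. Alternatives were mouse as a block, a variance trend, quantile normalization, median centring, other subsets of arrays and probe sets, the methods' t-test, a 2-fold threshold and leaving out each mouse or array. Leaving out the WT vehicle control arrays of mice 2 and 3, that of mouse 3 alone for 3 genes, and single RSG arrays in the comparison of RSG with vehicle was added after the data were seen. On simulated data for IL-4 under RSG in WT (45037 probe sets), the fit called 14%, 32%, 40% and 54% of 50 probe sets each changed 1.5-, 2-, 4- and 8-fold, and 7 of 77 calls were false. Far fewer probe sets were changed there than the 6065 called in the data. The adjusted p depends on that share, so these rates need not hold for the data.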

Additional observations from a re-analysis of the deposited data

Results flagged for a closer look

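The test of the difference between responses singled out 13 probe sets whose IL-4 change differed between RSG and vehicle in WT macrophages. Among them the gap (RSG minus vehicle) was 3.46 ± 0.39 for Nfkbiz, 3.29 ± 0.49 for Pttg1, 1.78 ± 0.28 for Axl and -3.13 ± 0.51 for Sema4b (SE, log2 scale). Each of these gaps was called on only 1 of the gene's probe sets, and 1 vehicle array of Nfkbiz was at the lowest ratio of the table. The same kind of test between genotypes singled out 5041 probe sets whose IL-4 change under RSG differed between WT and STAT6 KO macrophages. For the genes of the study's text whose gap was called, the gap (WT minus STAT6 KO) was 6.69 ± 1.41 for Arg1, 4.10 ± 1.03 for Scd1, 2.10 ± 0.28 for Fabp4, 1.96 ± 0.29 for Mrc1, 1.80 ± 0.28 for Cd36 and 1.80 ± 0.34 for Pparg. The gaps of Retnla, Chil3, Ccl17, Angptl4, Pdk4 and Stat6 did not pass the test. Neutrophil, mast cell and lymphocyte marker lists were higher with IL-4+RSG in STAT6 KO cultures, and their part in these gaps was not tested. Groups of 3 arrays are too small for a test of single outlying arrays.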

How the results depend on the processing

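The count of 6065 probe sets stayed within 1.5-fold under the replicate block for mouse (6102), a variance trend, quantile normalization, centring and the 12 WT arrays alone. It was 3578 with the 6 compared arrays alone, 3499 by the methods' t-test on the deposited ratios after Benjamini-Hochberg adjustment (7313 unadjusted), 3216 at 2-fold, and between 4516 and 5770 on leaving out 1 mouse or array. The 13 differences between RSG and vehicle became 5 with the replicate block, 5 with a variance trend, 8 with quantile normalization (75% higher), 35 with centring, 35 without the WT vehicle control arrays of mice 2 and 3, 0 in the 12 WT arrays alone (2734 at an unadjusted p under 0.05), and 0 to 23 on leaving out 1 mouse or array. The 5041 differences between genotypes became 3086 to 3890 on leaving out 1 mouse, and 3627 with quantile normalization. Gene lists had 196 called genes, 207 with gene medians and 175 to 193 on leaving out 1 mouse or array. Of 124 named genes over 2351 alternatives, 2193 values kept their direction and side of the threshold, 146 lost the call, 5 gained one and 7 changed sign. The changes of sign were in genes without a call: Nos2 ranged from -1.17 to 0.48 on leaving out 1 mouse or array (0.48, 0.17, 0.065 and 0.042 where it was positive), Pdk4 from -0.032 to 1.31 (-0.0026 without mouse 2), and Stat6 was -0.14 with quantile normalization. The methods' t-test took the call from 34 named genes and the fit on the 6 compared arrays from 19. The replicate block took the call from Itga2b and from no other named gene. The list medians kept their sign under quantile normalization and centring. The cause of these shifts was not tested. With fewer arrays a fit has fewer degrees of freedom. Ratios hold no signal over background, so dim probe sets cannot be set aside.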
